A study of Saccharomyces cerevisiae with 12 samples.

Results

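The response of wild type Saccharomyces cerevisiae to Congo Red was described from 6 of the 12 Affymetrix yeast arrays of the study: the 3 arrays of wild type cells exposed to the dye minus the 3 arrays of wild type cells without it, paired by sample number. All genes with 1 symbol in the platform annotation were included, which gave 5449 genes. The wild type is the haploid strain BY4741. Treated cells were exposed to 30 µg/ml Congo Red for 2 h from early exponential growth, and the untreated cells of the same biological sample were grown for the same 2 h. The other 6 arrays are of a pat1 mutant, with and without the dye, 3 each. They are used here only to share the estimate of the spread and for 1 comparison at the end. The labels do not say how the mutant was made or how many clones were used. All groups share the genetic background BY4741, a MATa strain with deletions at HIS3, LEU2, MET17 and URA3.

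The dye Congo Red attaches to nascent chitin and glucan chains and so weakens the yeast cell wall. That wall is a mesh of beta-1,3-glucan, beta-1,6-glucan and chitin with mannoproteins bound to it. Stress on it is sensed by plasma membrane proteins of the Wsc and Mid2 families, which act through the small GTPase Rho1 on protein kinase Pkc1 and a kinase cascade ending in the mitogen-activated kinase Slt2. Slt2 activates the transcription factors Rlm1 and SBF, and Rlm1 controls many genes of wall proteins, glucan and chitin synthesis, and several members of the pathway itself.

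Signals were log2 RMA values, so a difference of 1 stands for a 2-fold change, and all differences are Congo Red minus no drug. The 6 wild type arrays had medians of 9.53 to 9.60. Across probe sets, Pearson's r between replicates was 0.985 to 0.994 with Congo Red and 0.979 to 0.995 without. The number of arrays limits the precision. The p-values and SE rest on a spread shared by the 3 wild type and 3 pat1 samples and moderated across genes (eBayes). They do not measure the spread of the 3 wild type samples alone. Sample 2 stood apart in a deleted gene. URA3 gave 7.71 on the treated array of sample 2, against 3.02 to 3.20 on the other 5 wild type arrays, while LEU2 and MET17 gave 3.24 to 4.20 on all 6. HIS3, the remaining gene on the list of deletions, gave 10.53 to 10.72 on all 6, far above the level of LEU2 and MET17, and which part of the gene its probes cover was not analysed. Of the strain's 7 measured a-cell markers all lay between 9.04 and 13.20, and 4 alpha-cell markers lay between 3.89 and 8.98. None of the 4 alpha-cell markers passed the test (limma, unadjusted count 0, and 0 without the pairing).

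Of 5449 genes, 769 (14.1%) passed the limma test with the biological sample as a block at a Benjamini-Hochberg adjusted p under 0.05. They were 448 genes higher with Congo Red (8.22%) and 321 lower (5.89%). The rises were larger than the falls. At least 2-fold changes were made by 70 of the 769 genes (1.28% of all genes tested), 68 of them higher and 2 lower. A further 163 genes changed 1.5-fold to 2-fold, 126 higher and 37 lower, and 536 changed less, 254 higher and 282 lower. The median difference was 0.54 among the genes called higher and -0.41 among those called lower, against -0.029 over all genes. In bulk cultures, fewer cells with a transcript and less of it per cell cannot be told apart.

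All 769 genes had the same sign in the 3 samples, as had 57.5% of all genes tested. The groups did not overlap for 348 of the 448 higher genes and 184 of the 321 lower ones, against 20.7% of all genes. The differences within the samples correlated across the 5449 genes at Pearson's r of 0.699 (samples 1 and 2), 0.892 (samples 1 and 3) and 0.761 (samples 2 and 3). These values are a description, since genes share arrays and normalization. Sample 3 responded most and sample 1 least among the lower genes: the median difference of the 321 was -0.29, -0.42 and -0.54 in samples 1, 2 and 3. For the 448 higher genes it was 0.53, 0.45 and 0.63. Without sample 1, 225 genes were higher and 158 lower, without sample 2 it was 323 and 94, and without sample 3 it was 133 and 21. In each of these fits all 769 kept their direction, which their shared sign in the 3 samples had fixed in advance. Of the 769, 149 genes (131 higher, 18 lower) were called in every one of these fits.

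**Figure D1:**
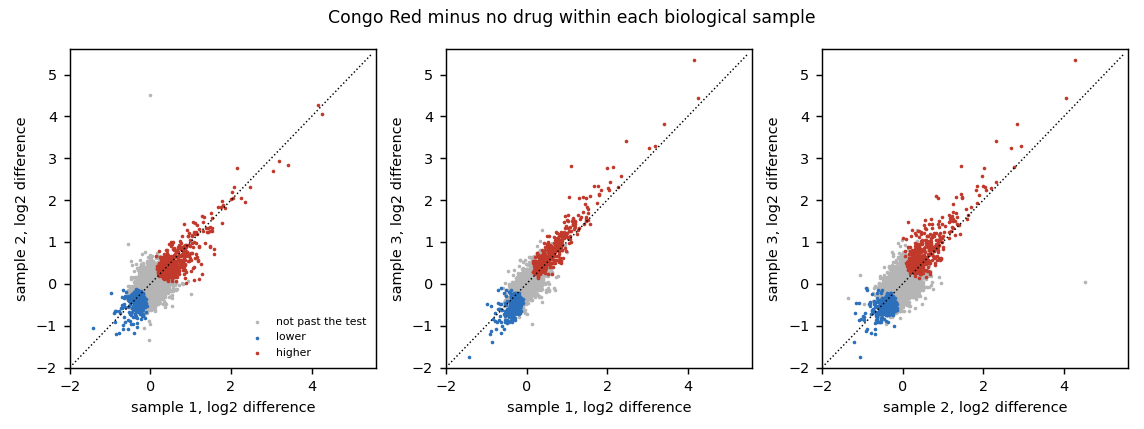
Difference between Congo Red and no drug (log2) of 5449 genes in one biological sample against another, for the 3 pairs of samples. Red points are the 448 genes called higher, blue points the 321 called lower, grey points the rest, and the dotted line marks equality. The leading rises lie near the line in each panel, and the single grey point far from it is URA3, which differed by 4.51 in sample 2.

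The largest rise was that of PIR3, which encodes a structural protein bound to wall glucan through internal repeats. Its signal was 10.73, 11.11 and 11.59 with Congo Red, against 6.56, 6.84 and 6.25 without drug, in samples 1, 2 and 3. The groups lay far apart, and the difference was 4.59 ± 0.32 (SE, n = 3 pairs, limma adjusted p = 5.33e-05). KDX1 (also called MLP1), a pseudokinase related to Slt2, gave 10.76, 10.80 and 11.24 with Congo Red, against 6.49, 6.74 and 6.81 without (4.25 ± 0.17, limma adjusted p = 3.61e-06). CRG1, a methyltransferase needed for resistance to cantharidin, gave 10.89, 11.27 and 11.56, against 7.48, 8.43 and 7.75 without drug (3.36 ± 0.21). YPL088W, a putative aryl alcohol dehydrogenase, gave 11.23, 11.41 and 11.82, against 8.04, 8.49 and 8.52 without drug (3.14 ± 0.22). In each of these 4 genes the lowest treated array stood above the highest untreated one by more than the spread within either group.

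SRL3, a protein related to the cell cycle repressor Whi5, gave 11.37, 11.13 and 11.72 with Congo Red, against 8.32, 8.45 and 8.48 without (2.99 ± 0.17). BAG7, a GTPase-activating protein of Rho1, gave 6.21, 6.25 and 7.41, against 3.75, 3.92 and 3.99 without drug (2.73 ± 0.20). The untreated BAG7 signals were within the range of the deleted genes LEU2 and MET17, so its difference is a lower bound. AFR1, which acts on the pheromone receptor and the mating projection, gave 10.39, 10.30 and 10.66, against 8.04, 8.33 and 8.10 without drug (2.29 ± 0.16). Sample 3 had the highest treated value in all 7 genes described so far.

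The 25 largest rises ended at 1.54, and each of the 25 was called without any 1 of the 3 samples. YJL107C, a gene of unknown function, rose by 2.27 ± 0.09 and its neighbour PRM10, a pheromone-regulated membrane protein, by 2.17 ± 0.08. DIA1, which affects invasive growth, rose by 2.21 ± 0.25 and HAL1, a halotolerance gene, by 2.03 ± 0.11. Also among the 25 were MCH5, the plasma membrane riboflavin transporter (1.63 ± 0.09), RTA1, a membrane protein of the lipid-translocating exporter family (1.79 ± 0.14), and FMP33, whose product has been found in mitochondria (1.60 ± 0.15). YNR065C (1.95 ± 0.13), YNR066C (1.54 ± 0.21), YPR078C (1.61 ± 0.18) and YMR315W-A (1.79 ± 0.26) have no assigned function in the names used here. For YMR315W-A the untreated arrays gave 3.40, 3.10 and 3.41, at the level of the deleted genes, so its difference is a lower bound too.

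**Figure D2:**
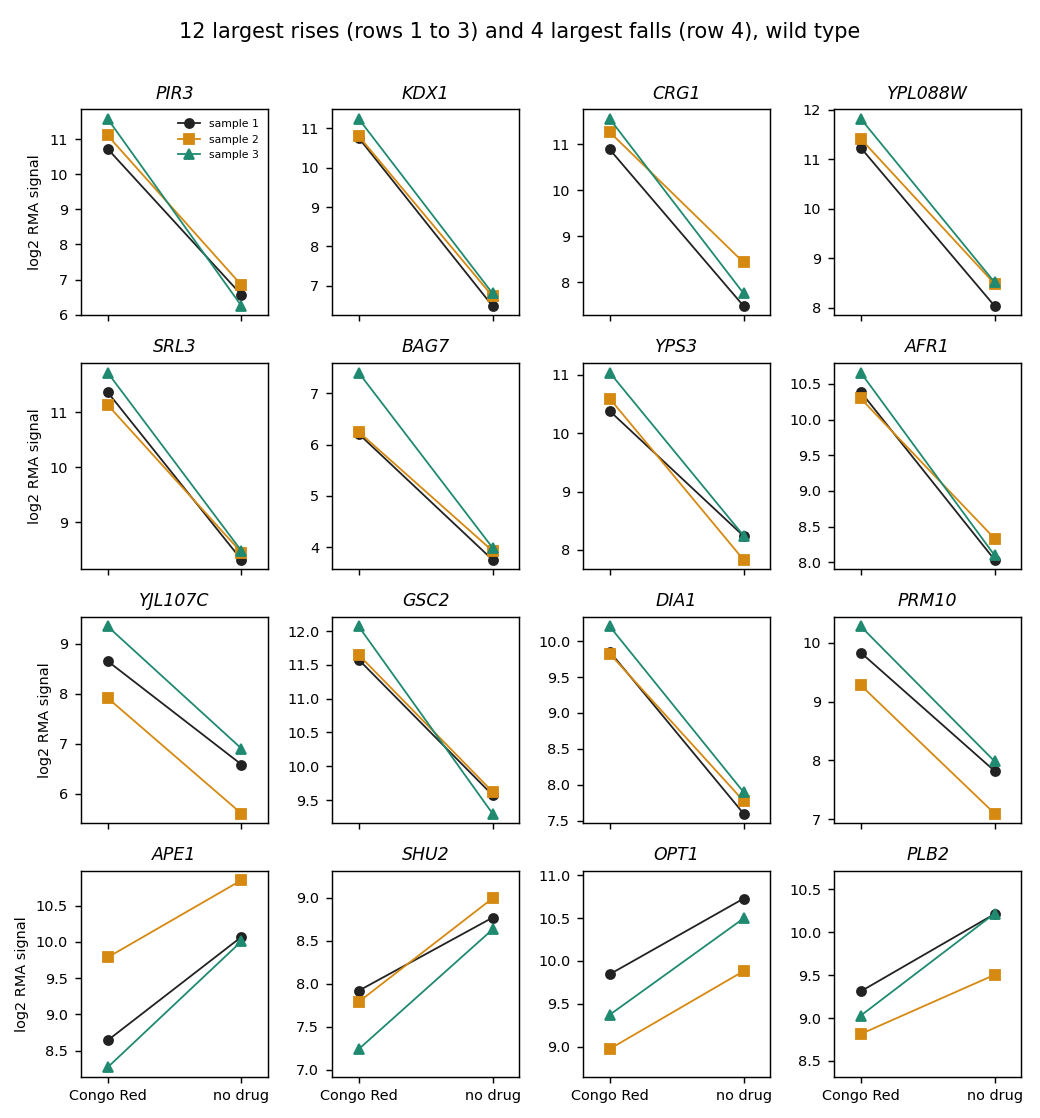
Signal (log2 RMA) of the 12 genes with the largest rises and, in the bottom line of panels, the 4 with the largest falls, with Congo Red on the left and no drug on the right of each panel. Each line joins the 2 arrays of 1 biological sample, panels have their own vertical range, and all lines of a gene slope the same way, as for PIR3 (10.73 to 11.59 with Congo Red against 6.25 to 6.84 without).

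The largest fall was that of APE1, a vacuolar aminopeptidase that reaches the vacuole through the cytoplasm-to-vacuole pathway. It gave 8.64, 9.79 and 8.27 with Congo Red, against 10.07, 10.85 and 10.01 without drug (-1.41 ± 0.17, limma adjusted p = 0.001). Both arrays of sample 2 were higher than those of the other samples, and the groups still did not overlap. SHU2, a member of the Shu complex of recombination repair, gave 7.92, 7.79 and 7.24, against 8.77, 9.0 and 8.63 (-1.15 ± 0.12, limma adjusted p = 0.000601). OPT1, an oligopeptide transporter, gave 9.85, 8.97 and 9.37, against 10.73, 9.88 and 10.50 (-0.97 ± 0.11). PLB2, a phospholipase B, gave 9.31, 8.81 and 9.03, against 10.21, 9.50 and 10.22 (-0.93 ± 0.14). In both of these genes sample 2 was lowest with and without the dye, and treated and untreated arrays did not overlap.

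The other large falls were 0.69 to 0.88 in size. They included GUP2 (-0.87 ± 0.11), a membrane protein related to Gup1, PHM6 (-0.87 ± 0.19), a gene induced by phosphate limitation, and FAF1 (-0.84 ± 0.12), a factor of pre-rRNA processing. HO, the endonuclease of mating type switching and a target of SBF, fell by 0.84 ± 0.10. CIN5, a basic leucine zipper transcription factor, fell by 0.77 ± 0.12. LYS20, a homocitrate synthase of lysine synthesis, fell by 0.70 ± 0.14, and TPO3, a polyamine transporter, by 0.69 ± 0.16. Of the 20 largest falls, 15 were called without sample 1, 15 without sample 2 and 11 without sample 3. LYS20 and TPO3 were among those lost without sample 3 (limma adjusted p = 0.123 and 0.0753), and both TPO3 and PHM6 were lost without any 1 of the samples (for PHM6 0.0504, 0.102 and 0.117 without samples 1, 2 and 3).

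**Figure D3:**
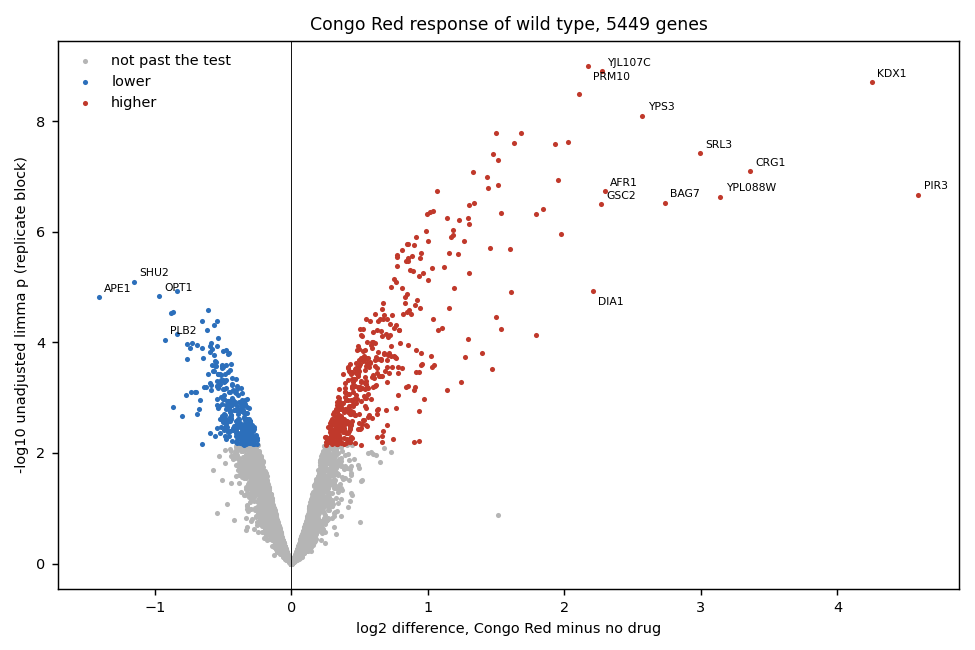
Difference between Congo Red and no drug (log2, horizontal axis) against -log10 of the unadjusted limma p (vertical axis) for 5449 genes in wild type. Red marks the 448 genes called higher, blue the 321 called lower, and grey the rest, with the 12 largest rises and 4 largest falls named. The rises reach 4.59 and the falls -1.41.

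Among the 6 sensors of wall stress, MTL1 and MID2 rose, WSC4 fell, and 3 did not pass the test. Over all genes 8.22% were higher and 5.89% lower. MTL1 gave 7.84, 7.28 and 8.16 with Congo Red, against 6.25, 6.56 and 6.74 without (1.24 ± 0.23, limma adjusted p = 0.00995), and lost its call without sample 1 or sample 3. Its relative MID2 gave 10.83, 10.53 and 10.95, against 10.04, 9.66 and 10.19 (0.81 ± 0.07). WSC4, a sensor-like protein of the Wsc family that also resides in the endoplasmic reticulum, gave 7.57, 8.02 and 7.58, against 8.35, 9.19 and 8.29 (-0.88 ± 0.11). WSC2 and WSC3 differed by 0.13 ± 0.08 and 0.13 ± 0.07 and did not pass. The sensors thus moved in both directions.

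Downstream, 2 of 12 genes of the Rho1 switch rose, against 8.22% of all genes. They were RHO1 (0.31 ± 0.07), whose call was lost without any 1 sample, and BAG7 as above, and PKC1 itself differed by -0.02 ± 0.11. In the cascade, with its phosphatases and scaffold, 4 of 13 genes rose and 1 fell. The kinase gene SLT2 gave 12.07, 11.78 and 12.35 with Congo Red, against 10.31, 9.93 and 10.43 without (1.84 ± 0.14, limma adjusted p = 7.55e-05). The tyrosine phosphatase PTP2 (1.52 ± 0.10) and the dual-specificity phosphatase MSG5 (1.12 ± 0.11), which both inactivate kinases of this kind, rose as well. The upstream kinases BCK1 (-0.004 ± 0.10) and MKK1 (0.06 ± 0.14) did not pass, and the polarity scaffold SPA2 fell by 0.35 ± 0.10, a call lost without any 1 sample. Counted without samples 1, 2 and 3 in turn, 4 genes of the cascade list were higher each time.

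Of 13 transcription factors linked to wall stress, 3 rose and none fell, beside 8.22% higher and 5.89% lower over all genes. The list median was -0.004, with 7 of the 13 differences below 0. RLM1 gave 10.14, 9.80 and 10.28 with Congo Red, against 8.82, 8.55 and 8.94 without (1.30 ± 0.10). Its relative SMP1 gave 7.0, 6.96 and 7.68, against 6.17, 5.53 and 6.48 (1.15 ± 0.11). MSN4, a factor of the general stress response, gave 8.27, 8.95 and 8.65, against 7.80, 8.76 and 7.76, with overlapping groups (0.52 ± 0.13, limma adjusted p = 0.0301). SWI4 (-0.25 ± 0.10) and SWI6 (-0.29 ± 0.13), the subunits of SBF, did not pass.

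Of 27 measured Rlm1 targets, 25 rose and none fell, with a median of 1.30 against -0.029 over all genes. Over all genes 8.22% were called higher. The 2 targets that missed the threshold were FKS1 (0.27 ± 0.08, limma adjusted p = 0.06) and SPI1 (0.42 ± 0.17, adjusted p = 0.127). The list median was 1.31, 1.25 and 1.42 in samples 1, 2 and 3. YPS3, an aspartic protease at the cell surface, gave 10.38, 10.60 and 11.04 with Congo Red, against 8.24, 7.83 and 8.24 without (2.57 ± 0.12). PRM5, a membrane protein induced by pheromone, gave 11.74, 11.82 and 12.16, against 9.70, 9.76 and 9.93 (2.11 ± 0.09). Both genes had separate groups, with sample 3 highest among the treated arrays. YPK2, a kinase of membrane homeostasis, rose by 1.93 ± 0.11, PST1, a GPI-anchored wall protein, by 1.68 ± 0.09, and PUN1, a membrane protein of the eisosome regions, by 1.48 ± 0.09. At the lower end were BGL2, a glucanosyltransferase (0.32 ± 0.09), and CIS3, a PIR wall protein (0.28 ± 0.07), whose calls were lost without any 1 sample. The number of targets called was 22, 20 and 18 when samples 1, 2 and 3 were left out in turn.

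Of 17 genes of chitin synthesis, 7 rose and 1 fell, beside 8.22% higher and 5.89% lower over all genes. GFA1, which makes glucosamine phosphate at the entry of the precursor pathway, gave 12.70, 12.64 and 12.84 with Congo Red, against 11.54, 11.24 and 11.43 without (1.33 ± 0.08). PCM1, a mutase of the same pathway, rose by 0.97 ± 0.10. The chitin synthase CHS1 gave 11.22, 11.25 and 11.40, against 10.25, 10.31 and 10.19 (1.03 ± 0.08). CHS3, the synthase of most wall chitin, gave 12.03, 11.85 and 12.24, against 11.19, 10.94 and 11.22 (0.92 ± 0.11). The chaperone CHS7, through which Chs3 leaves the endoplasmic reticulum, rose by 0.89 ± 0.09, CHS6, which acts in its transport to the surface, by 0.87 ± 0.09, and the Chs3 activator SKT5 by 0.56 ± 0.13. SHC1, related to SKT5 and known from sporulation, fell by 0.36 ± 0.09. CHS2, the synthase of the septum, differed by 0.09 ± 0.09, and CHS5, a transport factor, by 0.23 ± 0.10. The calls of SKT5 and SHC1 were lost without any 1 sample, and the count of rises was 6 without each of the 3 samples.

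Of 20 genes of beta-1,3-glucan synthesis and remodelling, 6 rose and 1 fell, beside 8.22% higher and 5.89% lower over all genes. GSC2 (also called FKS2), the inducible catalytic subunit of glucan synthase, gave 11.58, 11.65 and 12.07 with Congo Red, against 9.57, 9.62 and 9.30 without (2.27 ± 0.17). CRH1, which links chitin to glucan, rose by 1.19 ± 0.13, and the exoglucanases EXG2 and EXG1 by 0.91 ± 0.08 and 0.36 ± 0.10, the EXG1 call being lost without any 1 sample. GAS3, of the family of glucan-elongating enzymes, fell by 0.47 ± 0.08. Of 12 genes of beta-1,6-glucan synthesis 6 rose, among them KNH1 (0.78 ± 0.07), ROT1 (0.67 ± 0.09), KRE6 (0.49 ± 0.09) and SKN1 (0.43 ± 0.08). The rises numbered 3 without each sample for the beta-1,3-glucan list, and 3, 4 and 2 without samples 1, 2 and 3 for the beta-1,6-glucan list.

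All 5 measured PIR genes rose, from CIS3 at 0.28 over PIR1 (0.42 ± 0.09), HSP150 (0.54 ± 0.09) and PIR5 (0.77 ± 0.17) to PIR3. Leaving out samples 1, 2 and 3 in turn, 4, 2 and 1 of them were called. Of 6 yapsins, the surface proteases that shed and process wall proteins, 4 rose: YPS3, YPS6 (1.53 ± 0.12), YPS1 (1.33 ± 0.10) and YPS7 (0.43 ± 0.11, lost without any 1 sample). MKC7 differed by -0.27 ± 0.08 and YPS5 by 0.52 ± 0.20, and neither passed. Of 29 GPI-anchored mannoproteins 8 rose, led by PST1, CWP1 (1.46 ± 0.13), YPS1, DFG5 (1.18 ± 0.10) and AFB1 (1.18 ± 0.10), and 4 fell. The falls were PLB2, FIT2 (-0.50 ± 0.12), which binds iron siderophores at the wall, TIR3 (-0.54 ± 0.12) and TIR1 (-0.49 ± 0.13). The last 2, both known as genes of anaerobic and cold growth, were named after their values were seen. The mannoprotein falls were 1, 2 and 1 without samples 1, 2 and 3, and FIT2 was called in none of these fits. For comparison with the counts of these lists, 8.22% of all genes were called higher and 5.89% lower.

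Among genes of glycosylation, of 14 genes of protein O-mannosylation only MNT4, a mannosyltransferase, rose (0.86 ± 0.08). Of 16 genes of Golgi mannan synthesis, KTR2 gave 9.87, 9.93 and 10.25 with Congo Red, against 8.02, 8.11 and 8.01 without (1.97 ± 0.17), and KTR6 rose by 0.39 ± 0.07. The KTR6 call was lost without sample 2 or sample 3 (limma adjusted p = 0.054 and 0.124). Of 26 genes of GPI anchor synthesis 3 rose, the largest being SPT14 (0.51 ± 0.10), and 1, 0 and 0 were called without samples 1, 2 and 3. For comparison with the counts of these lists, 8.22% of all genes were called higher.

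At the membrane, 4 of 26 sphingolipid genes rose and 1 fell, beside 8.22% higher and 5.89% lower over all genes. The list had 3, 4 and 1 rises and 1, 0 and 0 falls without samples 1, 2 and 3. SUR1, of mannosylinositol phosphorylceramide synthesis, rose by 1.02 ± 0.08, IPT1, which adds the last inositol phosphate, by 0.70 ± 0.12, and ORM2, a regulator of the first step, by 0.42 ± 0.07. IPT1 and ORM2 lost their calls without sample 3 (limma adjusted p = 0.0504 and 0.1). The phospholipase PLB1 rose by 1.17 ± 0.10 while PLB2 fell, and PLB3 differed by 0.26 ± 0.08 without passing. FLC2 (1.44 ± 0.10) and FLC1 (1.14 ± 0.09), relatives thought to carry flavin or calcium, rose, and FLC3 did not pass (-0.27 ± 0.09). RCR1, an endoplasmic reticulum membrane protein whose overexpression gives resistance to Congo Red, gave 10.14, 9.98 and 10.24 with the dye, against 8.71, 8.64 and 8.81 without (1.40 ± 0.22, limma adjusted p = 0.00506), and its relative RCR2 rose by 0.47 ± 0.08. SUR1, IPT1 and the genes of the PLB, FLC and RCR families apart from PLB2 were chosen after their values were seen. Of 18 eisosome genes 3 rose (YPK2, PUN1 and YPK1) and NCE102, a sphingolipid sensor of the eisosome, fell by 0.55 ± 0.07. Of 26 ergosterol genes ERG3 alone passed, with a fall of 0.32 ± 0.09, and without any 1 sample none passed (limma).

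**Figure D4:**
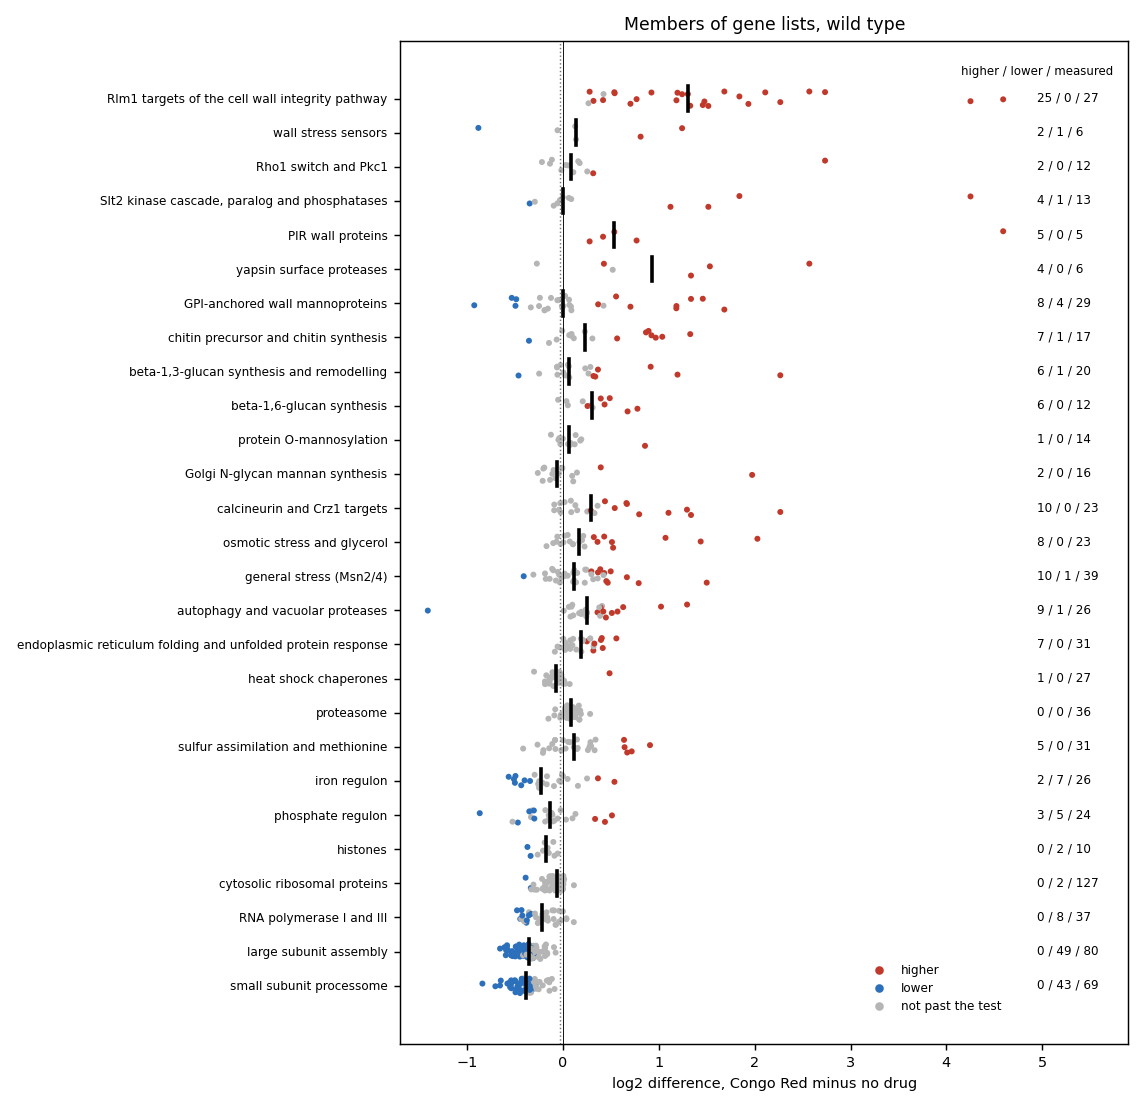
Differences between Congo Red and no drug (log2) of the members of 27 gene lists, each point 1 gene, red where called higher, blue where called lower and grey where not past the test. Black bars are list medians, the dotted line is the median of all genes, and the numbers on the right count members higher, lower and measured. The Rlm1 targets have their median at 1.30, and all members of the 2 ribosome assembly lists at the bottom lie below 0.

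Calcineurin is a phosphatase that is activated by calcium and turns on the transcription factor Crz1 in parallel to the kinase cascade. Of 23 genes of this branch 10 rose and none fell, beside 8.22% higher and 5.89% lower over all genes. The list median was 0.29. CMK2, a calmodulin-dependent kinase, gave 10.78, 10.52 and 11.01 with Congo Red, against 9.31, 9.62 and 9.50 without (1.29 ± 0.19). The calcineurin inhibitors RCN2 and RCN1 rose by 1.10 ± 0.15 and 0.54 ± 0.08, and the catalytic subunit CMP2 by 0.66 ± 0.08. The other catalytic subunit CNA1 (-0.09 ± 0.10) and CRZ1 (-0.03 ± 0.08) did not pass. GSC2 and YPS1 are members too, so this count partly repeats those above. Without samples 1, 2 and 3 it was 7, 10 and 6.

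Of 23 genes of osmotic stress and glycerol 8 rose and none fell, beside 8.22% higher and 5.89% lower over all genes. HAL1 led, followed by SSK22 (1.44 ± 0.09), a kinase at the head of the Hog1 cascade, and ASK10 (1.07 ± 0.07), a regulator of the glycerol channel. The response regulator SSK1 rose by 0.52 ± 0.09 and the glycerol phosphatase GPP2 by 0.51 ± 0.10. Of the list, 5, 6 and 3 genes were called without samples 1, 2 and 3.

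The general stress genes depended on the sample. Of 39 genes 10 rose and 1 fell, beside 8.22% higher and 5.89% lower over all genes. The list median was 0.27, -0.08 and 0.32 in samples 1, 2 and 3. HSP12, a membrane-stabilizing protein and marker of this response, gave 10.07, 12.48 and 9.77 with Congo Red, against 9.18, 12.47 and 8.67 without. Both arrays of sample 2 were high and nearly equal, while samples 1 and 3 had higher treated values (0.67 ± 0.18, limma adjusted p = 0.0405). TMA10 gave 9.21, 9.45 and 8.40, against 7.64, 8.63 and 6.30 (1.50 ± 0.20), with every treated array above its partner and overlapping groups. The number of rises was 2, 8 and 2 without samples 1, 2 and 3. The trehalase NTH1 rose by 0.79 ± 0.11 and the glycogen synthase GSY2 by 0.50 ± 0.11 in a trehalose and glycogen list of 22 genes, of which 4 rose. For that list the numbers without each sample were 1, 3 and 1.

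Of 27 heat shock chaperones only SSE2 rose (0.48 ± 0.09, lost without sample 3), and HSP104, the disaggregase, differed by -0.19 ± 0.12. The differences of 22 of the 27 were below 0, as were 57.1% of all genes. The list median was -0.02, -0.06 and -0.13 in samples 1, 2 and 3, against 0.009, -0.048 and -0.044 over all genes. Of 27 genes of oxidative stress 3 rose and 2 fell, YPL088W among the rises and GPX2, a peroxidase (-0.40 ± 0.10), and ATR1, a transporter (-0.48 ± 0.09), as the falls, beside 8.22% higher and 5.89% lower over all genes. Without samples 1, 2 and 3 there were 1, 2 and 1 rises and 1, 0 and 0 falls in that list, and GPX2 was not called in any of these fits. Of 25 multidrug transporters and relatives 2 rose (RTA1 and QDR2, 0.51 ± 0.09) and 5 fell. The transporter falls were 2, 0 and 0 without samples 1, 2 and 3.

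Of 31 genes of folding in the endoplasmic reticulum and of the unfolded protein response 7 rose and none fell, with a median of 0.18. Over all genes 8.22% were higher and 5.89% lower. SIL1, an exchange factor of the chaperone Kar2, rose by 0.56 ± 0.11, DER1, of degradation, by 0.41 ± 0.10 (lost without any 1 sample) and ERO1, the thiol oxidase, by 0.39 ± 0.08. HAC1, the transcription factor of this response, whose mRNA is spliced on stress, differed by 0.28 ± 0.09 (limma adjusted p = 0.0652) and was chosen after its value was seen. Its splicing was not analysed here. With samples 1, 2 and 3 left out in turn, 1, 2 and 0 of the list were called. No proteasome gene of 36 passed (limma, 2 higher and 0 lower at an unadjusted p under 0.05, and 0 without the pairing).

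In the vacuole and autophagy list 9 of 26 genes rose and APE1 fell, beside 8.22% higher and 5.89% lower over all genes. PRB1, a vacuolar serine protease, gave 11.13, 11.30 and 11.35 with Congo Red, against 10.00, 10.05 and 9.85 without (1.29 ± 0.10). ATG8, the ubiquitin-like protein of the autophagosome membrane, gave 9.86, 10.37 and 10.16, against 8.69, 9.80 and 8.84 (1.02 ± 0.17). ATG34, a receptor of selective autophagy, rose by 0.63 ± 0.10 and the Atg8-processing protease ATG4 by 0.57 ± 0.13. Of these, the groups of ATG34 overlapped. The number of rises was 4, 9 and 1 without samples 1, 2 and 3.

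Many genes of ribosome assembly fell, each by a small amount. In the small subunit processome, the particle that makes the first cuts in pre-rRNA, 43 of 69 genes fell and none rose, and all 69 differences were below 0, as were 57.1% of all genes. In large subunit assembly 49 of 80 fell and none rose, and all 80 differences were below 0. Over all genes 5.89% were called lower. The medians were -0.38 and -0.36, and the largest falls -0.84 and -0.66. UTP4, a processome subunit, gave 9.80, 9.55 and 9.39 with Congo Red, against 10.33, 10.23 and 10.16 without (-0.66 ± 0.09, limma adjusted p = 0.00207). SDA1, needed for export of the large subunit, gave 10.74, 10.17 and 10.46, against 11.17, 10.80 and 11.37 (-0.66 ± 0.10). The groups of UTP4 and SDA1 did not overlap. The RNA helicases FAL1 and ROK1 fell by 0.65 ± 0.11 and 0.58 ± 0.10, and CGR1 and IPI3, both of pre-60S maturation, by 0.61 ± 0.11 and 0.60 ± 0.10.

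These counts rested on the pairing and on the samples. The processome median was -0.26, -0.38 and -0.57 in samples 1, 2 and 3, and that of large subunit assembly -0.24, -0.35 and -0.54. Without samples 1, 2 and 3 in turn 33, 10 and 2 processome genes and 31, 14 and 0 large subunit genes were called lower. Without the pairing 2 processome and 3 large subunit genes passed, in a fit that called 2.68% of all genes (2.44% higher, 0.239% lower).

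For comparison with the counts of falls below, 5.89% of all genes were called lower. Around ribosome assembly, of 37 RNA polymerase I and III genes 8 fell, among them RPC31 (-0.48 ± 0.07), RPA34 (-0.45 ± 0.09) and the polymerase I initiation factor RRN3 (-0.43 ± 0.09), with 3, 3 and 0 without samples 1, 2 and 3. Of 127 cytosolic ribosomal protein genes 2 fell, RPS19A (-0.39 ± 0.10) and RPL26B (-0.34 ± 0.08), and the list median was -0.06, with 122 of the 127 differences below 0, as were 57.1% of all genes. No ribosomal protein gene was called without any 1 sample (limma, where 11 were lower at an unadjusted p under 0.05 with all samples). Whether the share of falls differed between these lists was not tested. Of 10 histone genes HTB2 (-0.37 ± 0.07) and HHF1 (-0.34 ± 0.07) fell, and all 10 differences were below 0, with a median of -0.18. The HHF1 probe set can also hybridise to similar genes, and HHF2 had no measured entry of its own. Histone falls numbered 1, 0 and 0 without samples 1, 2 and 3. Of 20 tRNA synthetases, GLN4 fell by 0.27 ± 0.07 and MES1 by 0.26 ± 0.07, and both calls were lost without any 1 sample.

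In metabolism, 5 of 31 genes of sulfur assimilation and methionine synthesis rose and none fell. Over all genes 8.22% were higher and 5.89% lower. At an unadjusted limma p under 0.05, 11 members were higher and 4 lower. MET28, a transcription factor of these genes, gave 7.38, 6.48 and 6.98 with Congo Red, against 6.27, 5.87 and 5.97 without (0.91 ± 0.18). MET14 (0.72 ± 0.11), MET2 (0.67 ± 0.17), MET16 (0.64 ± 0.12) and MET3 (0.64 ± 0.10), which encode enzymes of the pathway, followed. MET2 and MET3 overlapped between the groups, with sample 2 lowest on both sides. The number called was 2, 5 and 0 without samples 1, 2 and 3, and MET2 was called in none of these fits. BY4741 lacks MET17, the enzyme that incorporates sulfide, in both groups.

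Of 49 genes of amino acid synthesis 4 fell and none rose, beside 5.89% lower and 8.22% higher over all genes. The falls were LYS20, LYS21 (-0.48 ± 0.12) and LYS2 (-0.38 ± 0.09) of lysine synthesis, and LEU9 (-0.59 ± 0.12) of leucine synthesis. Of 20 genes of the tricarboxylic acid cycle 4 rose, led by the citrate synthase CIT1, which gave 12.18, 12.08 and 12.36, against 11.53, 11.45 and 11.49 (0.72 ± 0.13). Of 36 genes of respiration and ATP synthase 3 rose, and of 28 glycolytic genes 2, near the 8.22% of all genes. Without samples 1, 2 and 3 in turn, the calls were 1, 3 and 0 for the amino acid list and 1, 3 and 0 for the tricarboxylic acid cycle, while the rises were 1, 2 and 0 for respiration and 0, 1 and 0 for glycolysis. No hexose transporter or glucose sensor of 21 passed (limma, 1 higher and 2 lower at an unadjusted p under 0.05, and 0 without the pairing).

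Nutrient uptake genes moved in both directions. Of 26 genes of the iron regulon 7 fell and 2 rose, beside 5.89% lower and 8.22% higher over all genes. The falls included the reductase FRE1, which gave 11.88, 9.80 and 11.68 with Congo Red, against 12.25, 10.60 and 12.21 without (-0.57 ± 0.09). Both arrays of sample 2 were low, and the difference was negative in each sample. The siderophore transporters SIT1 and ARN2 fell by 0.51 ± 0.10 and 0.50 ± 0.10, and HMX1, a heme oxygenase, rose by 0.54 ± 0.09. Of 24 phosphate genes 5 fell, PHM6 and the acid phosphatase PHO5 (-0.47 ± 0.12) among them, and 3 rose, with PHO89, a sodium phosphate cotransporter, at 0.44 ± 0.10. In the fits without samples 1, 2 and 3, the falls were 3, 4 and 1 for iron and 1, 1 and 0 for phosphate. The phosphate rises were 1, 1 and 0, and PHO89 was not called in any of the 3 fits. Of 24 genes of the pentose phosphate pathway and thiamine 2 rose and 2 fell, with a median of 0.04. RKI1 of the pentose phosphate pathway fell by 0.57 ± 0.10 and the thiamine transporter THI7 by 0.51 ± 0.09, and both calls were lost without sample 3 (limma adjusted p = 0.0906 and 0.0865). GND2 was among the rises (0.30 ± 0.08), which numbered 0, 1 and 0 without samples 1, 2 and 3.

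Of 30 genes of mating and pheromone response 8 rose and none fell, led by AFR1, PRM10 and PRM5. Of the 10 PRM genes, a group named for induction by pheromone, PRM10, PRM5, PRM4 (0.56 ± 0.11, lost without any 1 sample) and PRM8 (0.49 ± 0.08) rose, while PRM9 differed by -0.16 ± 0.13. The a-specific pheromone receptor STE2 did not pass (-0.11 ± 0.07). Counted without samples 1, 2 and 3 the mating list had 5, 5 and 4 rises. Of 35 genes of meiosis 2 rose and none fell, beside 8.22% higher and 5.89% lower over all genes. SPO11, the nuclease-like protein of meiotic double-strand breaks, gave 6.83, 6.80 and 7.62 with Congo Red, against 5.36, 5.92 and 5.57 without (1.47 ± 0.26). IME2, a meiotic kinase, gave 7.18, 7.06 and 7.26, against 6.44, 6.40 and 6.37 (0.77 ± 0.08). NDT80, the transcription factor of middle meiotic genes, did not pass (0.36 ± 0.12). Leaving out each sample in turn, 2, 3 and 1 meiotic genes were called.

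In the cell cycle lists, SRL3 and SVS1 (0.54 ± 0.10) rose and HO, TOS4 (-0.37 ± 0.09) and POL2 fell among 50 genes of the G1 to S transition, so members moved in both directions. Over all genes 8.22% were higher and 5.89% lower. In that list the rises numbered 2, 1 and 1 and the falls 1, 1 and 1 without samples 1, 2 and 3. Of 40 genes of G2 to M and cytokinesis 6 rose, with NIS1, a bud neck protein (0.70 ± 0.09), DBF2, a kinase of mitotic exit (0.59 ± 0.09), and ASH1, the daughter cell repressor of HO (0.55 ± 0.14), as the largest. The 6 rises became 4, 2 and 1 without samples 1, 2 and 3.

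Related genes could differ in their change. Of 41 measured pairs of related genes, 32 had at least 1 member past the test. Both members rose in 8 pairs, 1 rose and the other did not pass in 21, 1 fell and the other did not pass in 2, and in 1 pair, SKT5 and SHC1, they moved in opposite directions, with both calls lost without any 1 sample. The differences within a pair below compare each gene's own change, not the levels of different probe sets. GSC2 rose by 2.27 and FKS1, the other catalytic subunit of glucan synthase, by 0.27, so that their changes differed by 1.80, 1.76 and 2.44 in samples 1, 2 and 3. The changes of KDX1 and SLT2 differed by 2.51, 2.22 and 2.51. SRL3 rose by 2.99 and WHI5 differed by 0.04 ± 0.22. PTP2 rose by 1.52 and PTP3 differed by -0.30 ± 0.11, PST1 rose by 1.68 and ECM33 differed by 0.00 ± 0.08, and PUN1 rose by 1.48 and SUR7 differed by -0.37 ± 0.12. Pairs that rose together were RLM1 and SMP1, PRM5 and YNL058C (1.50 ± 0.08), MTL1 and MID2, and KRE6 and SKN1. A rise in 1 member with no call in the other does not show that the other was unchanged.

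**Figure D5:**
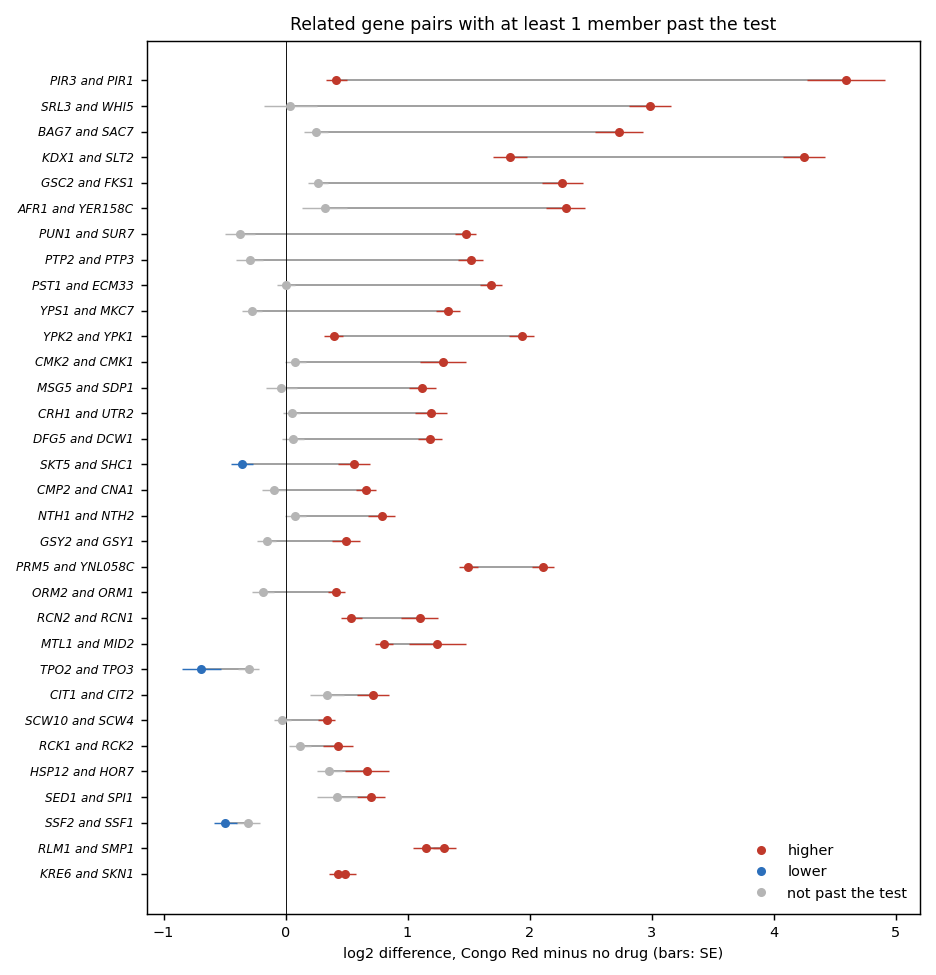
Differences between Congo Red and no drug (log2, points, with SE as bars) for the 32 pairs of related genes with at least 1 member past the test, ordered by the gap between the members. Red points were called higher, blue ones lower, and grey ones did not pass. The gap is widest for PIR3 (4.59) and PIR1 (0.42), and narrowest for KRE6 (0.49) and SKN1 (0.43).

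Neighbours were taken from the gene order of assembly R64. Of 5433 pairs of adjacent tested genes 80 were both higher, 18 both lower and 42 opposite. An adjacent gene that also rose was found for 140 of the 448 higher genes (31.2%), against 15.6% of all genes with an adjacent higher gene. For the lower genes the shares were 10.9% and 11.5% of all genes. Both genes rose in 26 of 1411 divergent pairs (1.84%), 43 of 2612 tandem pairs (1.65%) and 11 of 1410 convergent pairs (0.78%). These shares are a description with no test. Both genes rose at least 2-fold in 5 pairs, which were picked out after their values were seen. They were PRM10 with YJL107C, YMR315W-A with DIA1, YNR065C with YNR066C, YPS1 with YPS3, and RLM1 with YPL088W, of which the last runs from a shared intergenic region in opposite directions. PIR1 and PIR3 are also divergent neighbours.

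Systematic names stand for genes without an assigned name, and 86 of the 769 genes had only such a name. They made up 12.1% of the genes called higher and 9.97% of those called lower, against 9.16% of all genes tested. Of the 769, 15 came from probe sets that can also hybridise to similar genes.

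The response was compared with that of the pat1 mutant in the same fit. Pat1 is a factor of mRNA decapping and decay. There 126 genes (2.31%) passed, 107 higher (1.96%) and 19 lower (0.349%). Of the 448 genes higher in wild type, 104 were also called higher in pat1, which is 23.2% of the 448 and 97.2% of the 107. Of the 321 lower genes 10 were also called lower, which is 3.12% of the 321 and 52.6% of the 19. The sign was shared by 93.5% of the higher and 85.7% of the lower genes, against 62.6% of all genes. A gene called in 1 strain and not in the other is not shown to differ between them, and the test of the difference passed for 3 genes (0.0551%). YJL107C rose by 2.07, 2.31 and 2.44 in the 3 wild type samples, and its change was 2.27 in wild type and 1.01 in pat1, a difference of 1.26 ± 0.12 (limma adjusted p = 0.0199). PRM10 changed by 2.17 in wild type and 1.17 in pat1 (difference 1.00 ± 0.12, adjusted p = 0.0353). YNR065C changed by 1.95 in wild type and 0.50 in pat1 (1.45 ± 0.18, adjusted p = 0.043). None of the 3 passed without sample 2 or without sample 3. The processome median was -0.38 in wild type and -0.06 in pat1, and none of its genes passed the test of the difference. For PIR3 the change was 4.59 in wild type and 1.99 in pat1, and the difference did not pass (2.60 ± 0.46, adjusted p = 0.122).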

How the data were processed

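Total RNA of 3 biological samples per strain was hybridised to 1-colour Affymetrix yeast arrays with and without Congo Red. The deposited table holds log2 values, which per the submitters' processing notes were made with RMA (version not given), a method of background correction, quantile normalization and probe set summary. They were used as deposited. Of 5739 probe sets, 23 controls and 218 without a listed gene did not enter the gene tests. The rest had 1 symbol each in GEO's platform annotation, of which 12 were updated through the RefSeq table of assembly R64. The brightest probe set was used for 47 genes with several. The sources used here do not give a genome build, and no coordinates are printed.

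A linear model with 1 term per biological sample and 1 Congo Red term per strain was fitted over the 12 arrays by limma 3.58.1 (lmFit, eBayes) in R 4.3.3 (4 residual degrees of freedom). Benjamini-Hochberg adjustment ran over 5449 genes, with a threshold of 0.05. Tables and figures were made in Python 3.11.15 (pandas 2.3.3, numpy 2.4.6, matplotlib 3.10.9). The pairing comes from the series' design text. It was checked on deviations from group means across genes: same-numbered wild type arrays correlated at 0.648, 0.801 and 0.782, and the highest value between other numbers was 0.231. Neither labels nor files give a scan or hybridisation batch.

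Gene lists (55 with measured members) and pairs of related genes were written from general knowledge. They and the members were chosen with earlier results of these data known, and some lists share genes. Named genes were the 25 largest rises and 20 largest falls past the test with the same sign in all pairs, the measured Rlm1 targets, up to 5 members of each list with the largest absolute difference, related pairs with a call, markers, and the genes with the largest difference in response. Genes named outside this rule, apart from those said in the text to be so, are PKC1, BCK1, MKK1, CRZ1, CHS2, CHS5, CHS6 and POL2. Alternatives were no pairing, wild type arrays alone, median centring, quantile and cyclic loess normalization, a filter on the dimmest 25% of genes, eBayes with trend or robust settings, stricter thresholds, the mean of probe sets, and leaving out each sample or array. A fit of all probe sets was added after seeing the data. A planned comparison of promoter motifs was not run.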

Additional observations from a re-analysis of the deposited data

Results flagged for a closer look

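The difference in response between wild type and pat1 passed the limma test for 3 genes, all higher in wild type: PRM10 (1.002), YJL107C (1.261) and YNR065C (1.452) on the log2 scale. PRM10 and YJL107C are adjacent on the chromosome.

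Probe sets with no listed gene were not part of the comparisons above. In a fit of 5716 probe sets, 35 of the 218 such probe sets passed, 31 higher with Congo Red and 4 lower. The probe set 1778149_at gave 9.23, 9.76 and 9.21 with Congo Red, against 6.05, 6.91 and 5.95 without (3.10 ± 0.22, limma adjusted p = 5.41e-05). The probe set 1769943_at fell by 0.56 ± 0.09 (limma adjusted p = 0.00566).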

How the results depend on the processing

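The count of 769 genes depended on the replicate block and on the samples. With no replicate block 146 genes passed, 133 higher and 13 lower, and all 146 were among the 769. Without 1 of the wild type samples, in paired fits, 383, 417 and 154 genes passed without samples 1, 2 and 3 (225, 323 and 133 higher, 158, 94 and 21 lower). With no pairing, 105, 111 and 72 passed without treated arrays 1, 2 and 3 (94, 108 and 70 higher, 11, 3 and 2 lower), and 81, 122 and 89 without untreated arrays 1, 2 and 3 (77, 112 and 87 higher, 4, 10 and 2 lower). With the 6 wild type arrays alone 1172 passed, 619 higher and 553 lower. At an adjusted p under 0.01 there were 281 genes, 221 higher and 60 lower, and at 2-fold or more 70, 68 higher and 2 lower. Median centring (492 higher, 390 lower), quantile (453 and 429) and cyclic loess normalization (501 and 367), the filter on dim genes (369 and 376), eBayes with trend (491 and 430) or robust settings (450 and 326) and the mean of probe sets kept the total within 1.5 times.

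The 3 genes that differed in response between wild type and pat1 became 0 with no replicate block, with cyclic loess and at 0.01, 1 with median centring, 7 with the dim filter, 21 with trend, 5 with robust settings or the mean of probe sets, and 0 to 4 without 1 sample or array. Without the pairing, 3 named genes that had passed the test reversed: ADE4 to 0.005 without treated array 3, FRE1 to 0.093 without treated array 2, and HSP12 to -0.189 without treated array 2 and to -0.052 without untreated array 3. No other gene that had passed the test and was named by the rule above reversed under the settings in which it was fitted. The filter on dim genes left some named genes out. Genes that had not passed could change sign, such as ECM33, which differed by 0.005, 0.056 and -0.052 in samples 1, 2 and 3. Causes were not tested. Signals near those of deleted genes give only bounds.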
